A study of Mus musculus with 2 samples.

Results

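The genes of heme synthesis and breakdown described here are 9: Alas1, Alas2, Alad, Uros, Urod, Cpox, Ppox and Fech, which encode enzymes of synthesis, and Hmox1, which encodes the inducible enzyme of breakdown. They were chosen by symbol, not by any measured value, from 43346 Ensembl genes, and all 9 were found in both gene tables. Total RNA was sequenced from livers of B6NCrl mice at an age of 0 days. The livers were taken whole from 2 pups of 1 dam, so the series holds 1 group of 2 littermates with no treatment, mutant allele or contrast, and the labels give no sex. A whole newborn liver holds hepatocytes, macrophages and the red cell precursors of fetal blood formation together. Fewer cells of a type and less RNA per cell cannot be told apart in such bulk samples.

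Heme is an iron-containing ring made by a chain of enzymes that starts and ends in the mitochondrion and runs through the cytosol in between. A pair of genes encodes the first enzyme: Alas2 serves red cell precursors, which need heme for hemoglobin, and Alas1 serves other tissues, including hepatocytes, which need it for cytochromes P450. Heme oxygenases open the ring and release iron, carbon monoxide and biliverdin, which biliverdin reductases turn into bilirubin.

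The libraries held 42124582 expected counts for pup 1 and 41443673 for pup 2. Levels are in TPM, a gene's share of transcripts after division by length, scaled to the same total in each library. Detection required 1 TPM in both livers, which 12332 Ensembl genes reached. All 8 hepatocyte markers, all 9 matched erythroid markers and all 10 macrophage markers were detected. The erythroid markers summed to 1041 TPM in pup 1 and 973 in pup 2, the macrophage markers to 553 and 542, and the hepatocyte markers to 46833 and 45906. The pups stood apart in genes of other tissues, since 6 striated muscle markers summed to 50.2 TPM in pup 1 and 758 in pup 2, and 6 pancreas markers to 1.96 and 91.5.

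All 9 enzyme genes were detected, from 46.5 to 396 TPM, and summed to 1553 (pup 1) and 1510 TPM (pup 2). Their median was 146 ± 0.636 TPM (SD, n = 2), beside a median of 8.96 TPM over the 12711 Ensembl genes averaging at least 1 TPM. Together they held 0.153% ± 0.00299 of all TPM and 0.234% ± 0.000204 of expected counts.

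Alas2, the erythroid form of the rate-limiting first enzyme, was the highest of the 9 (chromosome X, 150547375 to 150570638, GRCm38). It stood at 389 (pup 1) and 402 TPM (pup 2) and ranked 303 among all Ensembl genes. Alas1, the form of other tissues (chromosome 9, 106233455 to 106248654), stood at 77.4 and 71.4 TPM and ranked 1365. In both livers Alas2 was thus far above Alas1, 5.03 times in pup 1 and 5.63 times in pup 2, and the log2 ratio of their levels was 2.41 ± 0.12 (SD, n = 2). Ratios of the same sign in both livers whose mean exceeded 3 SD were called larger than the spread, and this one was. No p is given for ratios, because the smallest that an exact two-sided sign permutation of 2 livers allows is 0.5.

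The start of Alas2 is known for elements of erythroid and iron control. Its promoter window is shown because the factor GATA1 reads erythroid genes. Its iron-responsive element is shown because iron regulatory proteins bind it and hold back translation when iron is scarce. The window was read from RefSeq promoters on GRCm38.p6, chrX:150547167-150547374 on the plus strand, and stops where the GENCODE M21 first exon begins. Capitals mark a GATA motif, here read on the opposite strand. The element comes from transcript Alas2-201 in GENCODE M21, chrX:150547455-150547484 on the plus strand, within the 5' untranslated part of the first exon. Its capitals mark the searched pattern: an unpaired C, 5 stem bases of any kind, then CAGTG and 1 further base, which form the loop.
Alas2 promoter: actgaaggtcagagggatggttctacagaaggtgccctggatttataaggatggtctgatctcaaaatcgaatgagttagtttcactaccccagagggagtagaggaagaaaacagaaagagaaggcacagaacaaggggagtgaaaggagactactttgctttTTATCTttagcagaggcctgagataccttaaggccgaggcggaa
Alas2 iron-responsive element: tctttggttCGTCCTCAGTGCagggcaaca
All 5 stem bases before the Alas2 loop can pair with the 5 bases after it. That pattern with 5 such pairs, counting G with T as a pair, was found in the first 100 bases of 31 of 66575 coding transcripts, or 0.0466%. The letters alone, with any pairing, were in 3.76%. The printed pattern lies at bases 90 to 101 of Alas2-201, so it ends outside that window. In the form Alas2-202 it lies at bases 6 to 17, inside the window. The search of Alas2 was not limited to 100 bases, so these percents are not a rate for that search. The same search found the letters in Uros-209 and Uros-205 too, with 3 of 5 such pairs. Fech was not searched. A match of letters is a description and not a measured site.

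The second enzyme gene, Alad (chromosome 4, 62509169 to 62519918), whose product joins pairs of aminolevulinate molecules to porphobilinogen, stood at 266 (pup 1) and 257 TPM (pup 2). It was the next highest after Alas2, at a log2 ratio to Alas2 of -0.60 ± 0.07 (SD, n = 2). Uros (chromosome 7, 133686243 to 133710072), which closes the ring, stood at 48.5 and 44.5 TPM and was the lowest of the 9. The difference between Alad and Uros was the largest between genes next to each other in the synthesis order of these 9, with a log2 ratio of -2.49 ± 0.06.

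Urod (chromosome 4, 116989965 to 116994413), the decarboxylase that makes coproporphyrinogen, stood at 225 (pup 1) and 215 TPM (pup 2), 4.73 times the level of Uros. Cpox (chromosome 16, 58670292 to 58717636), the mitochondrial oxidase of the next step, stood at 146 and 145 TPM, the closest agreement between the livers among the 9. Ppox (chromosome 1, 171275990 to 171281186), which oxidises protoporphyrinogen, stood at 61.1 and 53.6 TPM. Ppox was thus below the genes on either side of it in the pathway, at a log2 ratio to Cpox of -1.35 ± 0.13. Fech (chromosome 18, 64452914 to 64490251), which inserts iron to finish heme, stood at 203 and 189 TPM, and the log2 ratio of Fech to Ppox was 1.77 ± 0.06. Levels along the pathway therefore did not run evenly: Alas2, Alad, Urod and Fech were high, and Uros and Ppox were low in both livers.

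The breakdown gene Hmox1 (chromosome 8, 75093621 to 75100589) stood at 137 (pup 1) and 132 TPM (pup 2), below Fech by a log2 ratio of -0.54 ± 0.03. Hmox1 is induced by heme and oxidative stress and is high in macrophages that clear red cells, whereas Hmox2 is constitutive. Hmox2 stood at 50.2 and 49.1 TPM, so Hmox1 was 2.71 times higher. Of the next step, Blvrb, a biliverdin and flavin reductase abundant in fetal liver and red cells, stood at 346 and 315 TPM, and Blvra, the main adult biliverdin reductase, at 36.8 and 36.4 TPM. The log2 ratio of Blvrb to Blvra was 3.17 ± 0.09.

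**Figure D1:**
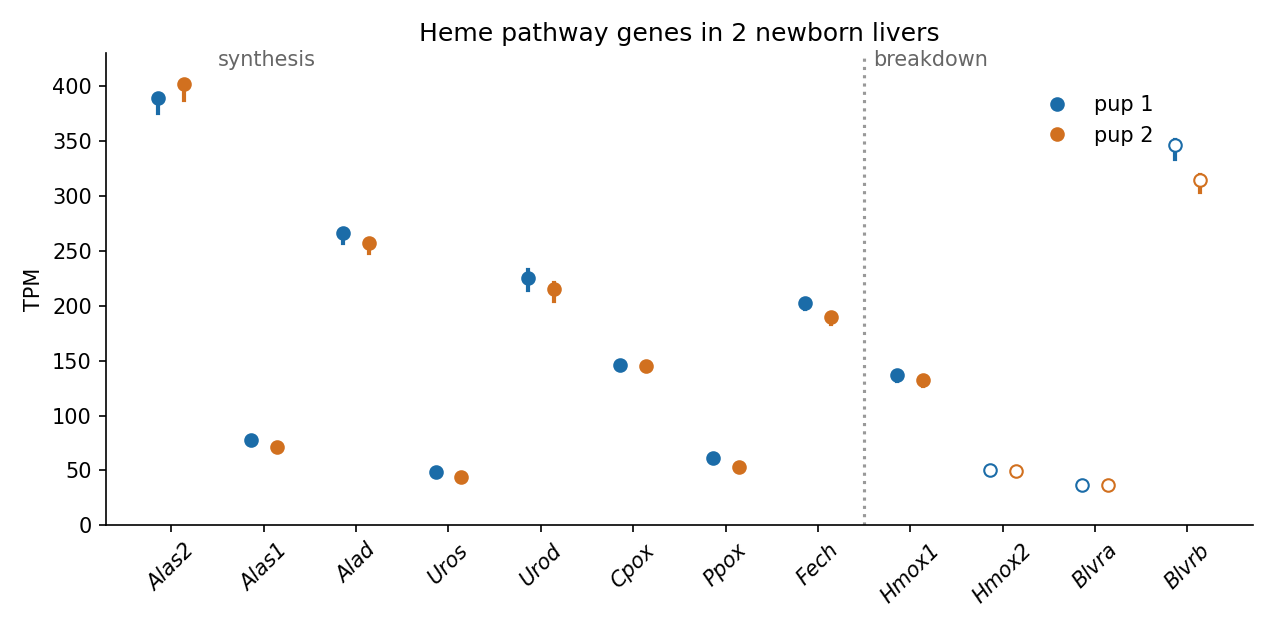
TPM of heme pathway genes in each liver, with synthesis left and breakdown right of the dotted line. Filled points are the 9 genes described, open points other pathway genes, blue pup 1 and orange pup 2, and bars are the deposited credible intervals. Alas2 is highest of the filled points at 389 and 402 TPM, and Uros lowest at 48.5 and 44.5.

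In order of level the genes ran Alas2, Alad, Urod, Fech, Cpox, Hmox1, Alas1, Ppox and Uros, in both livers alike. All 8 ratios between neighbours in this order were larger than the spread, and in all 8 the deposited credible intervals did not overlap within either liver. The order was taken from these same levels, so the direction of each mean ratio was set in advance. The closest neighbours were Cpox and Hmox1, 1.08 times apart, and Urod and Fech, 1.12 times apart. All 11 pathway ratios were larger than the spread as well. The place of Fech depends on its annotated length, which was 2901 nt in the deposited tables and 2059 nt in the later GENCODE M21. If all its reads lay in the shorter form, Fech would be at 280 TPM, above Alad and Urod. For Fech and Cpox the TPM lay just above its own credible interval in both livers, since the interval belongs to a second, posterior mean estimate.

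Expected counts were whole numbers (within 0.005) for 7 of the 9 genes in both livers, as they are when no read is divided between genes. Counts of Alas2 and Ppox were not whole. The whole span of the Alas2 gene, 23264 nt with introns, lies within that of Apex2 on the opposite strand, which stood at 5.83 and 5.32 TPM. Ppox shares 907 nt with B4galt3, at 14 and 14.4 TPM, and Uros 740 nt with Bccip, at 61.7 and 59.9 TPM, both on the opposite strand. These are overlaps of whole gene spans, introns included, and overlap of exons was not computed. The sources used here do not say whether counting used strand, so reads from these overlaps cannot be assigned with certainty. For Uros, whose counts were whole in both livers, no division of reads with Bccip was seen.

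The transcript tables divide each gene among its annotated forms as a percent of its TPM. Cpox and Fech had 1 form each. In 8 of the 9 genes 1 form held over 50% of TPM, the exception being Alas1. Of the 47 forms of the 9 genes, 40 had the same length in the deposited tables and in GENCODE M21, from which names and exons were taken.

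Both main forms of Alas2 were coding and started in the same first exon. Alas2-201 held 72.3% of Alas2 TPM in pup 1 and 71.3% in pup 2, and Alas2-202 held 18% and 20.7%. The third exon of Alas2-202 begins 45 nt later, which would leave out 15 codons. Its first exon has 27 nt in place of 111 nt and still holds the searched pattern of the iron-responsive element. The 2 coding forms together made up 91.1% ± 1.2 of Alas2 TPM (SD, n = 2) and 97.8% ± 0.329 of its expected counts.

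Alas1 was the most divided. The coding form Alas1-201 held 45.6% of TPM in pup 1 and 44.1% in pup 2. Alas1-206, annotated without a coding sequence and starting in a separate exon between exons 2 and 3 of Alas1-201, held 37.8% and 41.5%. The forms share 7 exons exactly, so the division between them is uncertain. Forms that start in the upstream first exon held 58.3% ± 1.6 of Alas1 TPM.

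Uros is known to have a general start upstream and an erythroid start in a downstream exon. Forms from the upstream cluster of first exons (chromosome 7, 133708924 to 133709281) held 80.3% of Uros TPM in pup 1 and 82.3% in pup 2, led by the coding Uros-204 with 53.3% and 50.9%. The downstream start (first exon 133702330 to 133702616) was represented by Uros-209, a fragment of 371 nt in 2 exons, which held 17.5% and 16.5% of TPM. It rested on 82.1 and 71.5 expected counts, or 3.67% ± 0.174 of Uros counts, and 1 read adds more TPM to a short form than to a long one. The annotation does not say whether this exon is the erythroid one. The share of Uros from the downstream start thus ran from 3.67% by counts to 17% by TPM. A full-length form from that start was not in the tables, so reads from the shared exons would be given to other forms.

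The windows before the Uros start sites are shown because they differ in GATA motifs, marked in capitals. They are from RefSeq on GRCm38.p6, minus strand, printed 5' to 3'. The upstream window is chr7:133709296-133709545 and the downstream one chr7:133702617-133702750, cut where the first exon of Uros-209 begins. A 30-base site around a second motif, within that exon, is chr7:133702551-133702580.
Uros upstream promoter: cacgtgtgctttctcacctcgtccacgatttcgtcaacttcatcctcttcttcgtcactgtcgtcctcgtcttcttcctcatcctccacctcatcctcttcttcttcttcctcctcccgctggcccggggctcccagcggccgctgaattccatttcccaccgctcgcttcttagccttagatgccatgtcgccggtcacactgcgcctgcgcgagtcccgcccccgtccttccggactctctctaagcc
Uros downstream promoter: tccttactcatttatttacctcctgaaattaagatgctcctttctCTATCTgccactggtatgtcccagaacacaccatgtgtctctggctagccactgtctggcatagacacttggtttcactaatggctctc
Uros downstream second motif: tctccctcagccTTATCAgtgacagagggc
GATA motifs were searched on both strands, as GATA with A or T before it and A or G after it, in the 250 bases before each RefSeq start. The downstream Uros window held 2 and the upstream window 0. Among 10 windows, from 7 of the genes, 3 held a GATA motif: Alas2, Uros downstream and Cpox. All windows of that length held one in 26.5% of cases, so the share in these genes is near the background. Fech was left out of this search, and Hmox1 had no entry. The E-box CACGTG was in 4 windows, those of Urod, upstream Uros and both overlapping Alad starts, beside 6.02% of all windows. Among other motifs searched, CC, any of A, C or G, then CACCC, known from erythroid promoters, was in the windows of Alas2 and both Alas1 starts, beside 13.1% of all. All of these CACCC sites lay within GENCODE M21 exons, and those of Alas2 lie beyond the end of the promoter stretch printed above. TGAC and GC with 3 bases between them, a form of the antioxidant response element, was in 0 windows beside 10.2%.

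The Cpox window is shown as the one with a pair of overlapping GATA motifs, 91 and 86 bases before its RefSeq start (chr16:58669958-58670207, plus strand, motifs in capitals).
Cpox promoter: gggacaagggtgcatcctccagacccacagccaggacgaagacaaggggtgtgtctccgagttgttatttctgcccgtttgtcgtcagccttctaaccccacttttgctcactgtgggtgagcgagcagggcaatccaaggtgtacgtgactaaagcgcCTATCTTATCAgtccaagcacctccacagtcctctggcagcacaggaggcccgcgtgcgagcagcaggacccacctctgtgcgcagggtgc

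**Figure D2:**
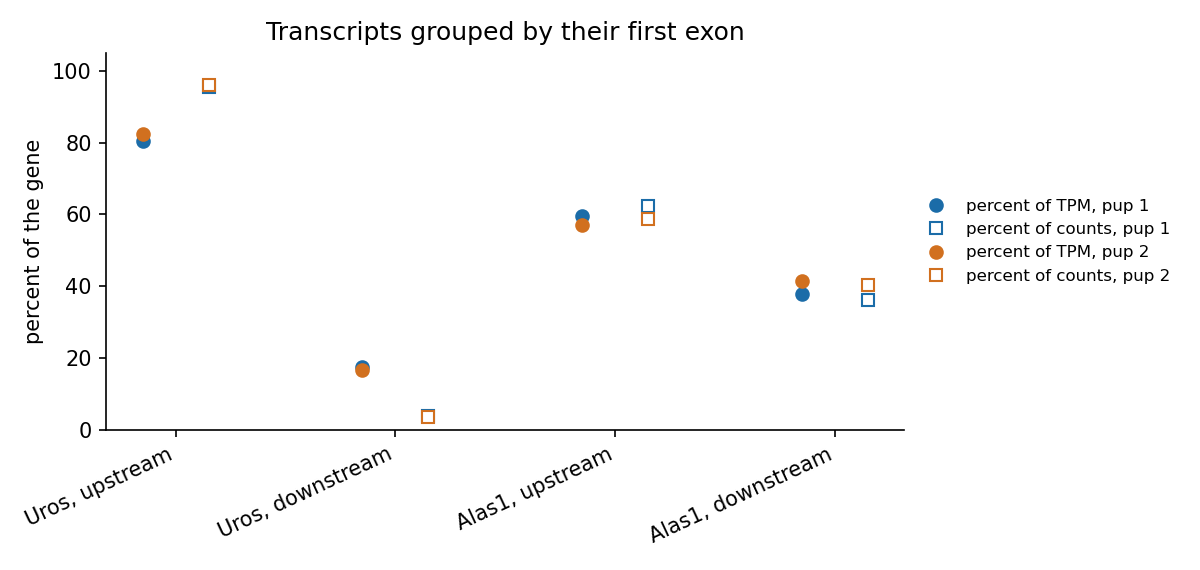
Percent of each gene held by transcripts from a given first exon, as TPM (filled circles) and as shares of expected counts (open squares), blue pup 1 and orange pup 2. The downstream Uros exon is at 17% of TPM and 3.67% of counts on average, and the upstream Alas1 exon at 58.3% and 60.6%.

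Among the 9 genes, forms annotated with a retained intron had their largest shares of TPM in Ppox and Urod. They held 28.3% of Urod TPM in pup 1 and 23.3% in pup 2, or 12.3% ± 2.18 of its counts. The single form Urod-209 held 17.6% and 11.7%, the widest gap in percent of TPM between the livers among the 47 forms. By counts it held 8.17% and 5.28%, and Alas1-206, at 36% and 40.4%, was further apart. In Ppox retained introns held 26.7% and 25.3% of TPM and 34.1% ± 1.26 of counts, led by the long Ppox-207 with 13.6% and 12.2% of TPM. Uros had 12.4% ± 0.0849 of TPM in 1 such form, which held 20.5% of its counts, above the share in Urod. The share of such forms over all genes was not computed. The libraries are of total RNA, and the part of unspliced RNA in these shares was not tested. Alad (99.5% ± 0.134 of TPM in coding forms) and Hmox1 (99.8% ± 0.17) were almost wholly coding, led by Alad-201 and Hmox1-201.

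**Figure D3:**
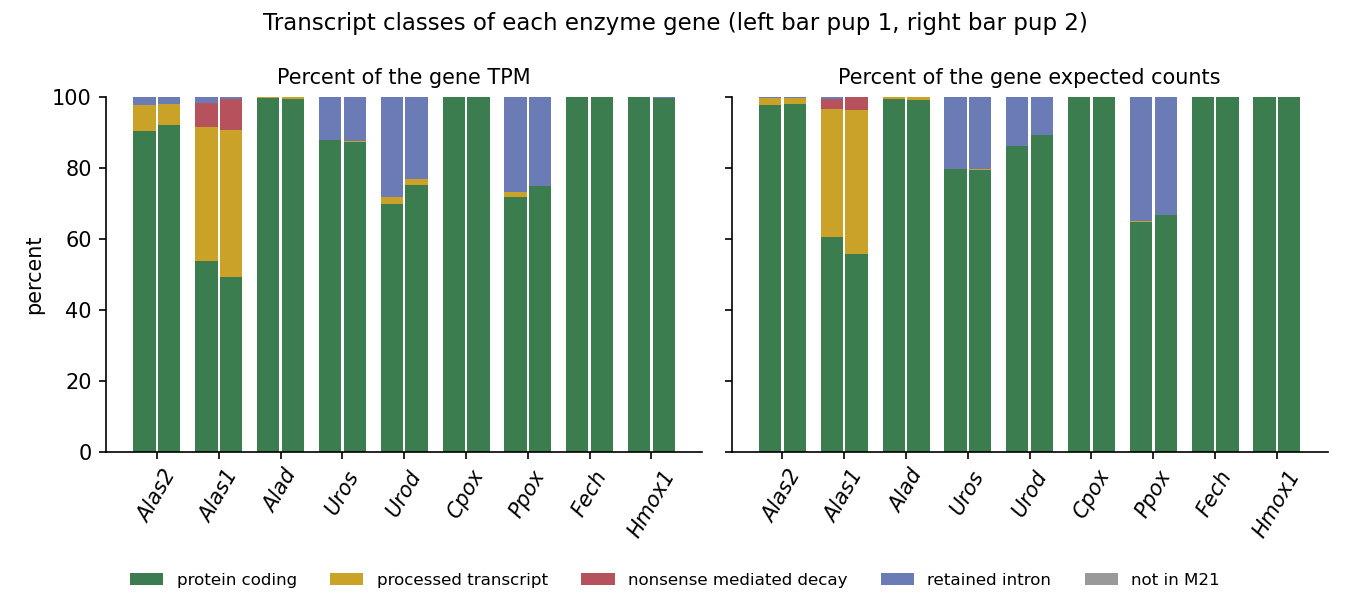
Percent of each gene by annotated class of transcript, as TPM (left panel) and as shares of expected counts (right panel), with pup 1 as the left bar and pup 2 as the right bar of each pair. On TPM retained introns are largest in Urod and Ppox, by counts in Ppox and Uros, and the non-coding Alas1-206 stands out in Alas1.

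Between the littermates none of the 9 genes was 2-fold apart. The rule asked for a log2 ratio of 1 or more in size on log2(TPM + 1), an average of at least 1 TPM and credible intervals that did not overlap, and compares 2 animals with 1 library each. It called 0.566% of 12711 genes higher in pup 2 and 0.0629% lower. By a looser rule of intervals alone, which covers counting and read assignment only, 6.27% of genes were higher in pup 2 and 13.8% lower. That rule called 0 of the 9 higher and 2 of the 9 lower, Ppox and Fech.

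Ppox had the widest difference, at a log2 ratio of -0.19, with intervals of 57.7 to 63.6 TPM in pup 1 and 50.9 to 56.3 TPM in pup 2. Fech was at -0.10, with intervals of 197 to 202 TPM and 184 to 189 TPM. The smallest difference was that of Cpox, -0.01. Alas2 was at 0.05 and Alas1 at -0.12, and the intervals of each overlapped between the livers. At the levels of these genes, the trended biological coefficient of variation from edgeR gave an SD of 0.17 to 0.20 for a log2 ratio between 2 livers. Of the 9, Ppox passed that SD on log2(TPM + 1), at 1.05 times its size. On TMM-scaled counts, from which the SD was estimated, Ppox was at -0.09, within it.

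On TPM 8 of the 9 genes were lower in pup 2, Alas2 being the exception, and the median log2 ratio was -0.06 beside -0.05 over the 12711 genes. Of those 12711 genes, 8009 were lower and 4658 higher. The direction depended on scaling: on TMM-scaled counts 4 of 9 were lower, and Alad, Urod, Cpox and Hmox1 were on the other side of 0. Alas1, Uros, Ppox and Fech were lower under all 7 scalings computed. With spike-in scaling, where the median of all genes moved to -0.27, Alas2 was lower too, at -0.20, which is above that median. Of the 9 erythroid markers 8 were at lower TPM in pup 2, beside 8009 of the 12711 genes, with a median log2 ratio of -0.19. The markers were counted on TPM alone. By the interval rule 5 of them were lower and 1 was higher, beside 13.8% and 6.27% of the 12711 genes. The part of red cell content, or of the muscle and pancreas RNA in pup 2, in these differences was not tested.

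**Figure D4:**
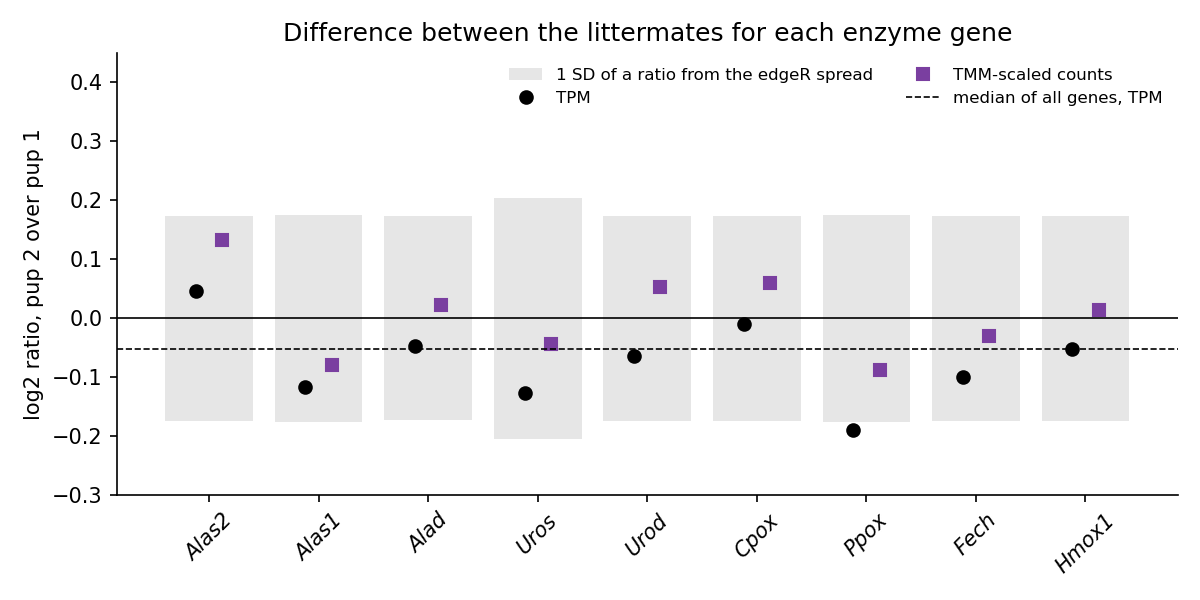
Log2 ratio of pup 2 over pup 1 for each gene, from TPM (black circles) and from TMM-scaled counts (purple squares), without a pseudocount. Grey bands are 1 SD of such a ratio from the edgeR spread, and the dashed line is the median of all genes on TPM, -0.05. Only the TPM value of Ppox, -0.19, lies outside its band.

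Around the enzymes, 24 of 25 other heme genes were detected, with a median of 49.7 TPM. The exception was Cd163, the macrophage receptor for hemoglobin bound to haptoglobin, at 0.66 (pup 1) and 0.67 TPM (pup 2). The plasma scavengers were highest: Hp, which binds free hemoglobin, stood at 3576 and 3509 TPM, and Hpx, which binds free heme, at 1784 and 1934 TPM. Of the mitochondrial iron importers, the erythroid Slc25a37 stood at 118 and 110 TPM and the general Slc25a28 at 3.22 and 4.28 TPM. Their log2 ratio was 4.94 ± 0.37 (SD, n = 2), the widest of the isozyme pairs. No gene of this list was 2-fold apart. By the interval rule 3 were higher in pup 2 and 9 lower, beside 6.27% and 13.8% of the 12711 genes. The called genes with the widest log2 ratios were Abcb10, a mitochondrial carrier of red cell precursors (-0.21), the exporter Abcg2 (-0.18), Blvrb (-0.14), the outer membrane protein Tspo (-0.13) and Hpx (0.12).

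All 20 regulators of heme genes were detected, with a median of 18.3 TPM. The highest were the erythroid factor Klf1 at 130 and 115 TPM, the transferrin receptor Tfrc, through which red cell precursors take up iron, at 90.2 and 74 TPM, and the erythroid factor Nfe2 at 77.9 and 74.4 TPM. Gata1, named after its value was seen because of the GATA motifs, stood at 37.9 and 34.6 TPM. No regulator was 2-fold apart. By the interval rule 0 of the 20 were higher in pup 2 and 9 lower, beside 6.27% and 13.8% of the 12711 genes. The widest was Ppargc1a, a coactivator that raises Alas1 in fasting liver, at 6.08 (pup 1) and 3.64 TPM (pup 2) (log2 ratio -0.61), beside -0.12 for Alas1. Tfrc was at -0.28, as was Mafk, a small partner protein of the repressor of Hmox1. Mafg, a like partner, was at -0.22, and Keap1, which holds back the activator of Hmox1, at -0.21. Hmox1 itself was at -0.05.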

How the data were processed

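Total RNA libraries (10 ng of RNA over 200 nt, with spike-ins, per the labels) from 2 littermate livers were quantified by the authors on mm10 with GENCODE M4, per the deposited notes; for the aligner and the counter the sources used here give no name. The authors deposited expected counts, which are estimated reads per gene. TPM values were deposited by the authors per effective length and FPKM values likewise per library reads. Percent of gene TPM for each transcript and the bounds of credible intervals, a signal on the TPM or FPKM scale whose level is not stated, were also deposited by the authors. A count of 0 allows 3 counts, 0.0712 CPM in pup 1 and 0.0724 in pup 2, for counting error only.

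Symbols, coordinates and exons came from GENCODE M21 on GRCm38, by identifier without version, and promoters from RefSeq on GRCm38.p6. Of 43346 Ensembl genes 42462 had a symbol, and 1 listed erythroid marker, Ahsp, had no match. The spread used edgeR 4.0.16 in R 4.3.3 on rounded expected counts, with TMM factors, low genes removed by filterByExpr and a design of 1 intercept. DESeq2 1.42.0 gave alternative size factors. Other steps ran in Python 3.11.15 (numpy 2.4.6, pandas 2.3.3, scipy 1.17.1). The scripts were tested on simulated data. All 9 enzyme genes are named. Of the other lists, genes are named if undetected or 2-fold apart, among the 3 highest, in a fixed pair, or among up to 5 widest calls of the interval rule. Some genes of these lists that the rule names are in the counts and are not reported here by name. Genes and lists were chosen with earlier results of these data known.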

Additional observations from a re-analysis of the deposited data

How the results depend on the processing

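All 9 genes were detected, all 11 pathway ratios and all 8 neighbour ratios were larger than the spread, and each gene had the same leading form, under each alternative run for these counts. Leaving out 1 liver gives the value of the other, which with 2 livers always lies within 1 SD of the mean and so says nothing about stability. Comparisons between the livers and SDs cannot be had from 1 liver. In CPM of the expected counts, not scaled by length, the summed level was 2342 in place of 1532 and the median 205 in place of 146. With posterior mean TPM the median was 143. In CPM Cpox lay above Urod (log2 ratio 0.91) and Fech above Urod (Urod to Fech -1.19), and with the M21 length of Fech, an alternative chosen after seeing the data, Urod to Fech was -0.35 and 7 of 8 neighbours kept their order. Genes 2-fold lower in pup 2 numbered 19 with a pseudocount of 0.1, 5 with TMM or with DESeq2 size factors and 16 with spike-in scaling, in place of 8. Genes 2-fold higher numbered 30 at a mean TPM of 5 or more, in place of 72. No enzyme gene was called 2-fold apart under any of these. With credible intervals of FPKM, 1 enzyme gene, Alas2, was called higher in pup 2. The common biological coefficient of variation was 0.118, and 0.135 with no filter on low counts. No paired analysis was possible because the series holds 1 group. The spike-ins drew 163 and 190 counts, which limits that scaling.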
